A study of Mus musculus with 17 samples.

Results

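Late neutrophil granule genes were followed across 6 sorted stem and progenitor populations of mouse bone marrow. The genes were S100a8, S100a9, Ltf, Camp, Ngp, Lcn2, Mmp8, Mmp9 and Chi3l3, and the members were all non-control array probes that carry 1 of these 9 gene names. This gave 11 probes, with 2 each for Ltf and Mmp9 and 1 for each other gene, out of 41174 probes and 28090 gene names. RNA was measured on 17 single-colour Agilent whole mouse genome arrays, each holding RNA from pooled marrow of female C57Bl/6 mice aged 6 to 8 weeks, with no genetic change and no treatment. The marrow of all populations was depleted of cells bearing B220, CD3, GR-1 or Ter119 and enriched for c-kit. The HSC subsets, LT-HSC (n = 2), ST-HSC (n = 3) and MPP (n = 3), came from 1 FACS sort, and the myeloid populations, CMP (n = 3), GMP (n = 3) and MEP (n = 3), came from another. For LT-HSC, 1 of the 2 arrays is labelled as a pool (2-3), so its n of 2 sets a pool beside an array that is not labelled as one.

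Neutrophils fill their granules in waves. Primary granule proteins such as myeloperoxidase and elastase are made at the promyelocyte stage, shortly after the GMP. Secondary granule proteins (lactoferrin, cathelicidin, neutrophilic granule protein, lipocalin 2 and the collagenase Mmp8) follow at the myelocyte stage, and the gelatinase Mmp9 after that. C/EBP family factors drive both waves, with C/EBPε needed for the secondary granule genes. S100a8 and S100a9 together form calprotectin, the most abundant cytosolic protein of the neutrophil. None of these late products is known as a protein of resting stem cells, and GR-1, an antigen of maturing granulocytes, was among the markers used for depletion.

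The arrays came from 3 scanning runs, as the file headers show. Run 1 held CMP, GMP and MEP replicates 1 and 2, run 2 held the arrays without a replicate number of MEP, GMP, CMP, MPP and ST-HSC, and run 3 held ST-HSC and MPP replicates 2 and 3 and both LT-HSC arrays. The LT-HSC array without a replicate number was the dimmest of all, with 41.4% of its spots well above background and a 75th percentile intensity of 53.1, against 48.2% to 70.1% and 243 to 534 on the other arrays. Both LT-HSC arrays were scanned on a slide of their own. The sort markers followed the labels in part. Fcgr3 was highest in GMP at a normalized log2 intensity of 13.61 ± 0.18 (SD, n = 3), Cd34 was lower in LT-HSC (14.96 ± 0.20, n = 2) than in ST-HSC (15.88 ± 0.09, n = 3) and MPP (16.64 ± 0.24, n = 3) but not than in GMP (14.29 ± 0.23, n = 3), a population known to bear CD34, and Flt3 was highest in MPP (9.93 ± 0.18, n = 3). Flt3 was 8.24 ± 0.93 (n = 2) in LT-HSC and 6.86 ± 0.12 (n = 3) in ST-HSC, so the LT-HSC arrays did not show the lowest Flt3 signal. Ly6a, which encodes the Sca-1 antigen of stem cells, read 9.71 ± 0.67 (n = 3) in GMP, with arrays that overlapped those of MPP (9.93 ± 0.61, n = 3) and ST-HSC (8.88 ± 0.79, n = 3), and was higher in GMP than in CMP by 2.55 ± 0.52 (SE; adjusted p = 0.011 by limma). All levels below are normalized log2 intensities, on which 1 unit is a 2-fold step, and the level of a probe is compared only with that of the same probe on other arrays.

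The sequences below show what the arrays read for the genes on which the results turn, 60 bases for each probe in lower case, with the position in the mouse mm9 genome given in the array files. Ngp and the second Ltf probe span 549 and 3051 bases of genome, so each crosses at least 1 intron, while the other Ltf probe lies within 60 contiguous bases. The 2 Ltf probes are shown because they test the same transcript at different places, and Mmp8 because its pattern differed from that of the other genes.
S100a8 probe A_51_P256827, mm9 chr3:90473778-90473837 (+): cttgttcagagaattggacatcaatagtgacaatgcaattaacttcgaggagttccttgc
Camp probe A_51_P180423, mm9 chr9:109749992-109750051 (-): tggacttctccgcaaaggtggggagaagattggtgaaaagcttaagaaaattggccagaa
Ngp probe A_52_P429450, mm9 chr9:110324266-110324814 (+): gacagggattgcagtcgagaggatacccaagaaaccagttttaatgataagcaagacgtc
Ltf probe A_52_P15388, mm9 chr9:110942873-110942932 (+): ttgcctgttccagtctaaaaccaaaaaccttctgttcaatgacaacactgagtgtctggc
Ltf probe A_51_P188141, mm9 chr9:110938264-110941314 (+): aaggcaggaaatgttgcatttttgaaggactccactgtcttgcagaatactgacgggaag
Mmp8 probe A_51_P231320, mm9 chr9:7568238-7568297 (+): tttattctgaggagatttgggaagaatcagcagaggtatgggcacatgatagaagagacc
The S100a8 and S100a9 probes lie 22.7 kb apart on chromosome 3, and the Camp, Ngp and Ltf probes lie within 1.19 Mb of chromosome 9. S100a9, Chi3l3 and Mmp9 were measured by probes of the same length at mm9 chr3:90496585-90496644 (-), chr3:105950485-105950544 (-), chr2:164780303-164780362 (+) and chr2:164780620-164780679 (+). The Mmp9 probe A_52_P507214 is printed at 10 spots per array and all other probes at 1. The probe of the paralog Chi3l4 also lists a transcript of Chi3l3, so the signals of these genes may not be fully separate.

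Most late granule genes had their highest mean level in LT-HSC and low levels in MPP, CMP and GMP. By the population means, 9 of the 11 probes had their highest level in LT-HSC. They came from S100a8, S100a9, Ltf, Camp, Ngp, Lcn2 and Chi3l3, and from Mmp9 by 1 of its 2 probes and through the dim LT-HSC array only. The 8 probes of S100a8, S100a9, Ltf, Camp, Ngp, Lcn2 and Chi3l3 were well above background on all 17 arrays and none was saturated. Among these 8 probes, 5 were lowest in CMP and 3 in GMP, and the highest and lowest population means differed by 1.94 to 3.999 on the log2 scale, or 3.85-fold to 16.0-fold. Across the 6 populations 6 of the 11 probes, from S100a8, S100a9, Ltf, Camp, Lcn2 and Chi3l3, passed limma's F-test at a Benjamini-Hochberg adjusted p of 0.05 (adjusted p from 0.00468 to 0.0402), where 40.6% of all probes did. Without the dim LT-HSC array 2 member probes passed (38.6% of all probes), and without both LT-HSC arrays 2 passed (37.9% of all probes).

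**Figure D1:**
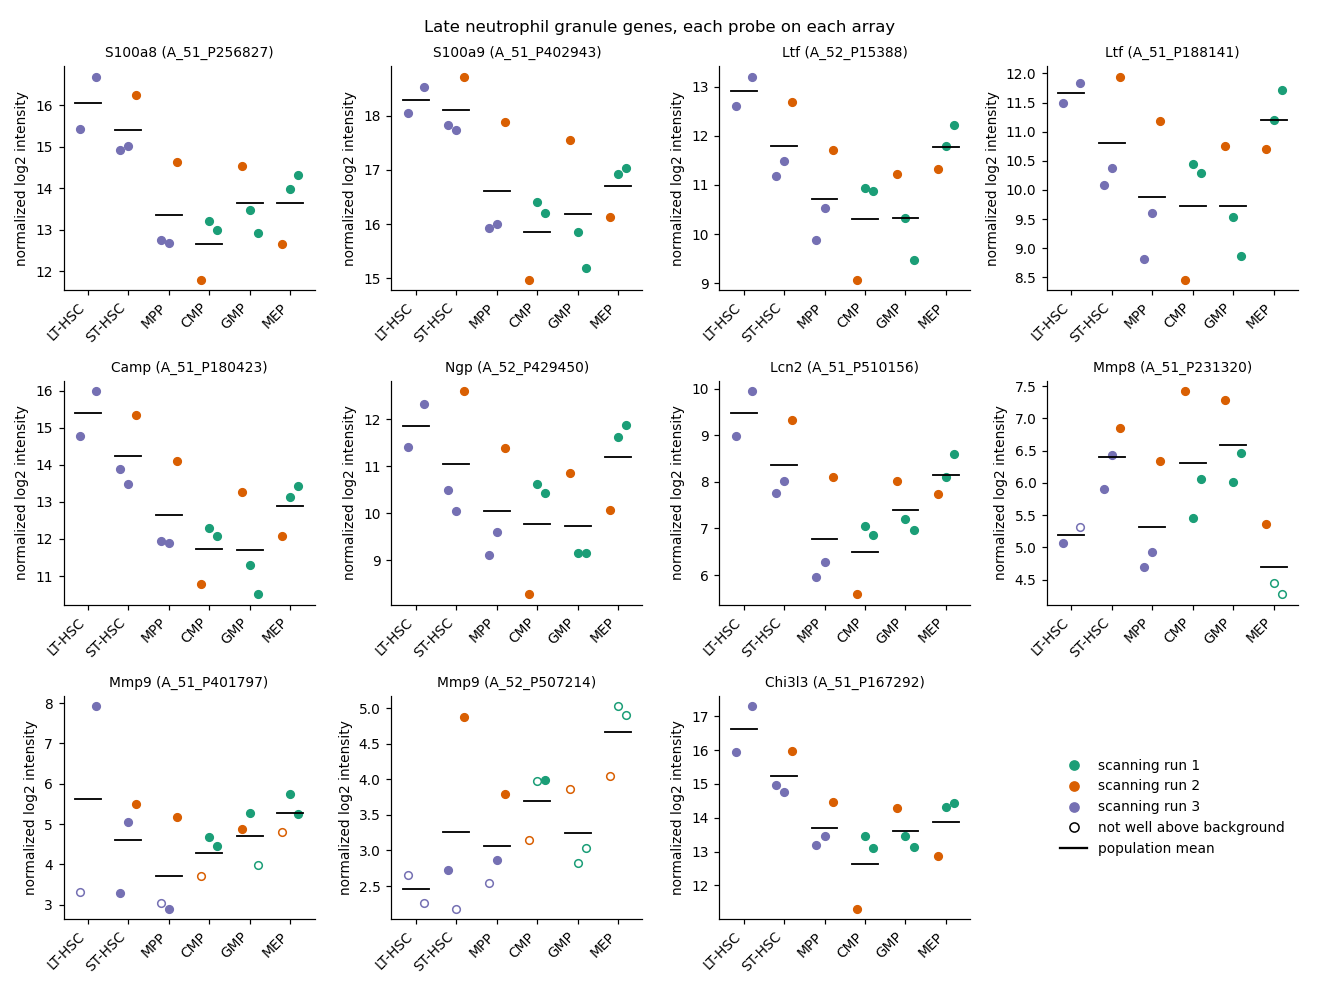
Normalized log2 intensity (y axis) of each of the 11 probes on each of the 17 arrays, by population (x axis). Points are arrays coloured by scanning run, open points were not well above background, and lines are population means. S100a8, S100a9, Camp and Chi3l3 lie above the MEP arrays on all ST-HSC arrays, and Mmp8 has its highest mean in GMP.

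The transcripts of both calprotectin subunits were highest in LT-HSC and ST-HSC. S100a8 read 15.43 and 16.69 in LT-HSC, 14.91, 15.02 and 16.26 in ST-HSC and 12.75, 12.67 and 14.63 in MPP. In the myeloid populations it read 11.80, 13.20 and 12.997 in CMP, 14.54, 13.48 and 12.93 in GMP and 12.67, 13.99 and 14.31 in MEP. All LT-HSC and ST-HSC arrays were above all myeloid arrays, while MPP overlapped with CMP, GMP and MEP. S100a9 ran from 18.29 ± 0.33 (SD, n = 2) in LT-HSC to 15.86 ± 0.78 (n = 3) in CMP. Its lowest ST-HSC array (17.74) was above its highest myeloid array (17.54, in GMP).

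Camp, Ngp, Ltf and Lcn2 of the secondary granules also had their highest means in LT-HSC, with less separation for some of them. Ngp did not pass the F-test (adjusted p = 0.276 by limma's F-test), and its highest single array was in ST-HSC. Camp, the antimicrobial cathelicidin, read 14.79 and 15.99 in LT-HSC, 13.89, 13.49 and 15.34 in ST-HSC and 11.95, 11.90 and 14.10 in MPP. Its myeloid values were 10.78, 12.31 and 12.09 in CMP, 13.26, 11.31 and 10.50 in GMP and 12.08, 13.15 and 13.43 in MEP. Again the LT-HSC and ST-HSC arrays were all above the myeloid arrays, with GMP holding the lowest value. Ngp, a cathelicidin-like granule protein encoded near Camp, read 11.41 and 12.33 in LT-HSC, 10.50, 10.05 and 12.60 in ST-HSC and 9.12, 9.61 and 11.40 in MPP. It read 8.27, 10.62 and 10.43 in CMP, 10.85, 9.15 and 9.15 in GMP and 10.07, 11.63 and 11.89 in MEP. For Ngp the MEP arrays lay within the range of the ST-HSC arrays, and no pair of neighbouring populations was separate.

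Ltf, the iron-binding protein lactoferrin, read 12.61 and 13.21 in LT-HSC by probe A_52_P15388 and 11.50 and 11.83 by probe A_51_P188141. In MEP the values by A_52_P15388 were 11.33, 11.80 and 12.21, and those of ST-HSC were 11.19, 11.49 and 12.69, so that MEP lay within the range of ST-HSC. In GMP they were 11.22, 10.32 and 9.47. Both probes thus placed LT-HSC highest and MEP among the higher populations. Lcn2, which binds bacterial siderophores, read 8.99 and 9.95 in LT-HSC, 7.76, 8.03 and 9.32 in ST-HSC, 5.96, 6.28 and 8.11 in MPP, 5.58, 7.05 and 6.86 in CMP, 8.02, 7.20 and 6.96 in GMP and 7.74, 8.10 and 8.59 in MEP. The LT-HSC and ST-HSC arrays overlapped, as did ST-HSC and MEP.

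Chi3l3 (Chil3 in current annotation), a chitinase-like lectin of neutrophils and activated macrophages, had the widest span. It read 15.93 and 17.31 in LT-HSC, 14.96, 14.76 and 15.96 in ST-HSC and 13.21, 13.45 and 14.47 in MPP. In CMP it read 11.31, 13.46 and 13.10, in GMP 14.28, 13.45 and 13.14, and in MEP 12.88, 14.31 and 14.42. Every LT-HSC and ST-HSC array exceeded every myeloid array.

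Mmp8 went another way, and the Mmp9 probes differed from each other. Mmp8, neutrophil collagenase, was highest in GMP with 7.28, 6.02 and 6.47, next in ST-HSC with 5.91, 6.43 and 6.85, and in CMP with 7.42, 5.45 and 6.06. It read 5.07 and 5.32 in LT-HSC, 4.70, 4.93 and 6.33 in MPP and 5.36, 4.45 and 4.27 in MEP, where 1 of 3 arrays was well above background. Mmp8 was well above background on 14 of 17 arrays, and its F-test gave an adjusted p of 0.0518. Mmp9, gelatinase B, was near background: its probe A_51_P401797 was well above background on 12 of 17 arrays and its probe A_52_P507214 on 5. The LT-HSC arrays read 3.32 and 7.93 by the former, the higher value on the dim array, and 2.66 and 2.26 by the latter, which was not well above background there or on any GMP or MEP array. The 2 Mmp9 probes therefore did not give the same order of populations, and Mmp9 was not detected above background on most arrays by the probe at 10 spots.

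The order of the levels held few clear steps. Of 55 steps between neighbouring populations over the 11 probes, 5 had no overlap between arrays, where 14.2% of the steps of all probes had none. In 4 of them ST-HSC stood above MEP, for S100a8, S100a9, Camp and Chi3l3. In the fifth, MEP stood above CMP for Mmp9 probe A_52_P507214, where the MEP arrays were not well above background. LT-HSC did not stand clear above ST-HSC for any probe, nor MPP, CMP and GMP clear of each other for any neighbouring pair.

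The HSC subsets were then compared with the myeloid populations, with each population weighted equally. Of the 11 probes 5 were higher in the HSC subsets and 1 was lower at an adjusted p of 0.05 by limma, where 41.3% of all probes were called, 18.2% higher and 23.1% lower. Camp was higher by 1.99 ± 0.48 (SE; 3.98-fold; adjusted p = 0.00459 by limma), Chi3l3 by 1.81 ± 0.38 (3.51-fold; adjusted p = 0.00175 by limma) and S100a8 by 1.61 ± 0.40 (3.06-fold; adjusted p = 0.0055 by limma). S100a9 was higher by 1.41 ± 0.38 (2.66-fold; adjusted p = 0.00984 by limma) and Ltf probe A_52_P15388 by 0.995 ± 0.38 (1.99-fold; adjusted p = 0.0486 by limma). For the first 4 of these genes 6 of 8 HSC subset arrays were above the highest myeloid array, and the overlap came from MPP replicates 2 and 3. The other Ltf probe (0.56 ± 0.43), Ngp (0.76 ± 0.52), Lcn2 (0.86 ± 0.36), Mmp8 (-0.23 ± 0.33) and Mmp9 probe A_51_P401797 (-0.11 ± 0.59) did not pass. The call of Ltf probe A_52_P15388 was kept in 10 of 26 other settings and lost with 12 of 17 arrays left out in turn and with 75th percentile scaling (0.90, adjusted p = 0.0659 by limma). Mmp9 probe A_52_P507214 was lower by 0.94 ± 0.36 (adjusted p = 0.0491 by limma), with 4 of 8 HSC subset arrays and 1 of 9 myeloid arrays well above background, and its sign turned when each array was scaled by its 75th percentile (0.14). The median difference over the 11 probes was 0.86, and over all probes it was -0.02. Scaling by the 75th percentile moved the median of all probes to 0.31 and the share of all calls that were higher from 44.0% to 64.1%, and the 8 probes of the 7 brighter genes then differed by 0.47 to 1.94. With both LT-HSC arrays left out, where 41.3% of all probes were called, 1 member was, Chi3l3 (1.09, adjusted p = 0.0434 by limma), and the same 8 probes differed by 0.12 to 1.34, all positive. Scanning run 2 is the only run that held both kinds of population (2 HSC subset arrays and 3 myeloid arrays), and there the same 8 probes were higher in the HSC subsets by 1.59 to 2.68. With scanning run as a block, where 14.5% of all probes were called, 8 of the 11 members were called higher and 0 lower, the 8 being those same probes, with differences of 2.24 to 3.54. Ngp (2.95, adjusted p = 0.0276 by limma), Lcn2 (2.42, adjusted p = 0.00835 by limma) and Ltf probe A_51_P188141 (2.24, adjusted p = 0.0441 by limma) gained their calls there, and Lcn2 was also called higher with slide as a random block, normexp background correction, 75th percentile scaling and the authors' log2 table. The run block assumes a shift common to all populations. For these 8 probes, however, the run 2 array was the higher in ST-HSC, MPP and GMP and the lower in CMP and MEP. The 10 numbered arrays hold no LT-HSC array and no array of run 2. Their HSC subset arrays were all of run 3 and their myeloid arrays all of run 1. Kind of population and scanning run therefore cannot be told apart among them. Over the 10 numbered arrays the same 8 probes differed by -0.66 to 0.68, with 4 of 8 positive (an alternative chosen after seeing the data). There 7 of the 11 members were called, where 55.8% of all probes were, 3 higher and 4 lower, and Ngp (-0.66) and Lcn2 (-0.45) were among the lower. With the replicate number as a block over the same arrays the 8 ran from -0.83 to 0.91, again with 4 of 8 positive. Markers of other cell types moved with this comparison. In the HSC subsets all 5 T cell markers were called higher, as were 5 of 8 B cell markers with 0 lower, 4 of 8 monocyte and macrophage markers with 2 lower and 2 of 6 erythroid markers with 1 lower, and their part in the differences was not tested.

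**Figure D2:**
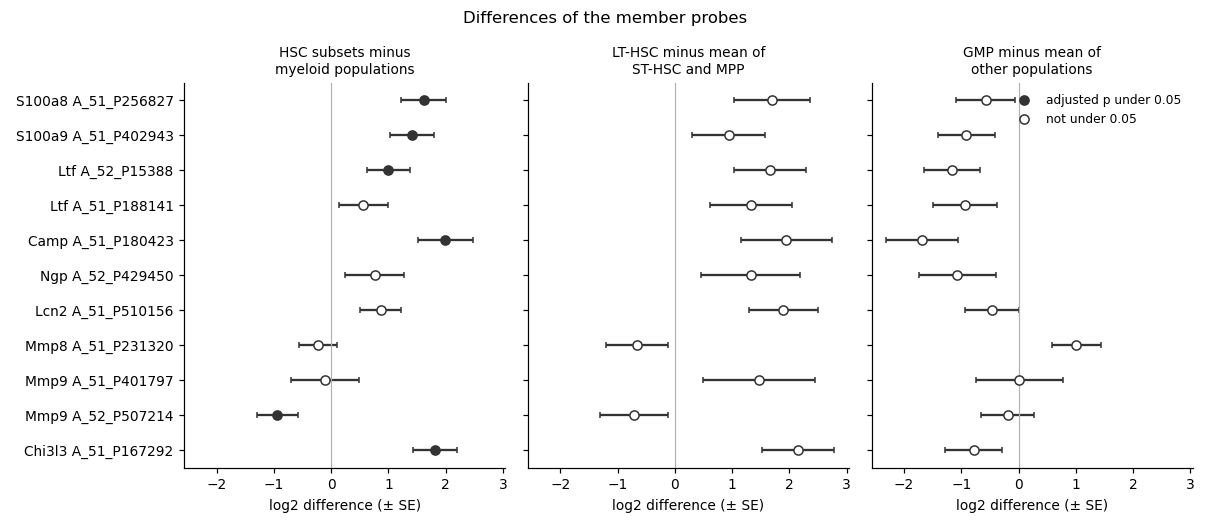
Log2 difference (x axis, with SE bars) of each member probe in 3 comparisons, from limma over 17 arrays. Filled points passed an adjusted p of 0.05. In the HSC subsets 5 probes were called higher and 1 lower, and no probe was called in the other comparisons.

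Within the HSC sort, LT-HSC was compared with the mean of ST-HSC and MPP. None of the 11 probes was called by limma, where 6.92% of all probes were, and 5 had an unadjusted p under 0.05, where 21.4% of all probes did. The nearest were Chi3l3, higher by 2.16 ± 0.63 (adjusted p = 0.0588 by limma), and Lcn2, higher by 1.90 ± 0.60 (adjusted p = 0.0786 by limma). Camp (1.95 ± 0.80), S100a8 (1.69 ± 0.66) and Ltf probe A_52_P15388 (1.66 ± 0.62) did not pass either, while Mmp8 was at -0.66 ± 0.54. The median over the 11 probes was 1.47, against -0.07 over all probes. That median is the value of Mmp9 probe A_51_P401797, whose LT-HSC level was high on the dim array only (7.93, against 3.32 on the other). The dim array also read higher than the other LT-HSC array for all 8 probes of the 7 brighter genes. Within run 3, which held both LT-HSC arrays and replicates 2 and 3 of ST-HSC and MPP, the 8 probes of the brighter genes were higher in LT-HSC by 1.42 to 2.58. With scanning run as a block in the fit, where 13.9% of all probes were called, 5 members were called higher, S100a8, Ltf probe A_52_P15388, Camp, Lcn2 and Chi3l3.

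GMP, the granulocyte-monocyte progenitor, did not hold the highest mean level of any of these genes but Mmp8. Against the mean of the other populations none of the 11 probes was called by limma, where 19.7% of all probes were, and 3 had an unadjusted p under 0.05, where 30.3% of all probes did. The differences ran from -1.69 ± 0.62 for Camp (adjusted p = 0.0776 by limma) to 1.01 ± 0.43 for Mmp8 (adjusted p = 0.126 by limma), and 9 of the 11 were negative. The scanning runs went opposite ways. In run 1, against CMP and MEP, all 8 probes of the brighter genes were lower in GMP, with log2 differences of -1.99 to -0.42. In run 2, against the 4 other populations, all 8 were higher by 0.02 to 0.70. With run as a block, where 15.6% of all probes were called, 5 members were called lower in GMP and 1, Mmp8, higher. Over the 10 numbered arrays, where 27.9% of all probes were called, 7 members were called lower and 1 higher. Without the GMP array of run 2 only Camp of the members was called, lower (-2.47, adjusted p = 0.0229 by limma), where 15.4% of all probes were called.

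GMP was also set against CMP, from which it descends. No member probe was called by limma, where 4.77% of all probes were, and none had an unadjusted p under 0.05, where 12.3% of all probes did. Differences ranged from -0.46 ± 0.59 for Mmp9 probe A_52_P507214 to 0.9999 ± 0.63 for Chi3l3. The runs again differed: in run 2 (1 array each) the 8 probes were higher in GMP by 2.15 to 2.97, and in run 1 (2 arrays each) they differed by -1.38 to 0.13. Over the 10 numbered arrays, which hold the myeloid arrays of run 1 only, 3 members were called lower in GMP, where 6.93% of all probes were called.

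Primary granule genes, the earlier wave of the same lineage, had another pattern. All 7 listed genes were highest in GMP, and all 7 were called higher there against the mean of the remaining populations, where 11.2% of all probes were called higher and 8.51% lower. Prtn3, the serine protease proteinase 3, was higher by 3.93 ± 0.54 (adjusted p = 0.000215 by limma), Ms4a3, a membrane protein of granulocyte precursors, by 3.69 ± 0.60 (adjusted p = 0.000742 by limma), Elane, neutrophil elastase, by 3.63 ± 0.70 (adjusted p = 0.00249 by limma) and Ctsg, cathepsin G, by 3.42 ± 0.54 (adjusted p = 0.000616 by limma). In LT-HSC against ST-HSC and MPP none of the 7 was called, where 6.92% of all probes were. By the mean of centred log2 intensities over the 7 genes, ST-HSC came next after GMP (0.85, against 0.28 in CMP and -0.51 in LT-HSC). The list's median difference for GMP was 3.42, against -0.79 for the 9 late genes with 1 probe each. Elane read 14.50 ± 0.53 (SD, n = 3) in GMP and 11.51 ± 1.64 (n = 2) in LT-HSC, while Camp read 11.69 ± 1.42 (n = 3) and 15.39 ± 0.85 (n = 2). C/EBPε itself (Cebpe) was not analysed here. Of 7 other granulocyte regulators 6 were called higher in GMP, with the largest differences for Cebpa (3.06 ± 0.35), Gfi1 (2.25 ± 0.32), Irf8 (2.02 ± 0.34) and Cebpd (1.87 ± 0.28), and Cebpa was called lower in LT-HSC than in ST-HSC and MPP (-1.77 ± 0.45; adjusted p = 0.0331 by limma). In the HSC subsets against the myeloid populations 18.2% of all probes were called higher and 23.1% lower. There 2 of the 7 regulators were called higher, Cebpb (1.95 ± 0.20; adjusted p = 6.8e-06 by limma) and Gfi1 (0.71 ± 0.25; adjusted p = 0.0359 by limma), and 1 lower, Cebpa (-1.02 ± 0.27). Cebpb read 13.33 ± 0.07 (SD, n = 2) in LT-HSC, 12.998 ± 0.62 (n = 3) in ST-HSC and 13.14 ± 0.52 (n = 3) in MPP. Its LT-HSC arrays lay within the ranges of ST-HSC and of MPP. Cebpb was not called in LT-HSC against ST-HSC and MPP (0.26 ± 0.33, SE; adjusted p = 0.704 by limma).

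**Figure D3:**
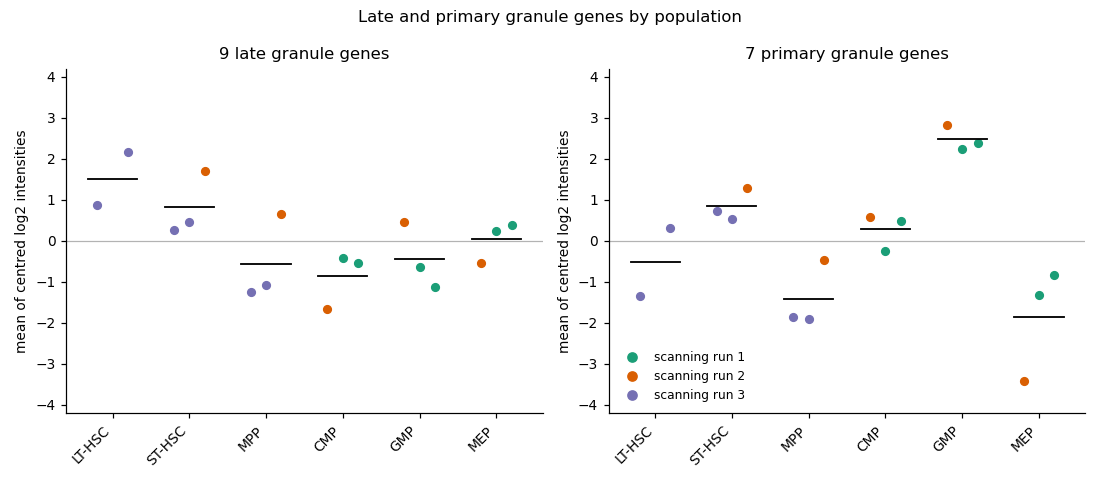
Mean of centred log2 intensities (y axis) over the 9 late granule genes and the 7 primary granule genes on each array, by population (x axis), with population means as lines and colours for scanning runs. The late genes peak in LT-HSC (mean 1.51) with CMP lowest (-0.87), while the primary genes peak in GMP (mean 2.48).

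Replicates of 1 population differed widely, and the late genes moved together when they did. The arrays of run 2 were higher than the others of their population in ST-HSC, MPP and GMP for all 8 probes of the 7 brighter genes, by 0.94 to 2.33 in ST-HSC, 1.14 to 2.17 in MPP and 0.94 to 2.36 in GMP. In CMP and MEP the run 2 array was lower for all 8, with log2 differences of -2.26 to -1.30 in CMP and -1.69 to -0.60 in MEP. Mmp8 was higher on the run 2 array in all 5 populations, by 0.68 to 1.66. Over the 17 arrays these 8 probes had pairwise Pearson correlations of 0.78 to 0.97 (median 0.90, 28 pairs), and after each population's mean was subtracted of 0.86 to 0.99 (median 0.94). Mmp8 correlated with the same probes at -0.29 to 0.01. The pooled SD within populations was 0.87 for S100a8, 1.05 for Camp and 1.14 for Ngp (11 residual degrees of freedom). These correlations are descriptions over 17 arrays that share libraries and normalization.

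Outside the list, 10 gene names had the profile most like the mean of the 9 genes over the 17 arrays. Itgb2l, a leukocyte integrin β chain-like gene, was the nearest (r = 0.99), above each single member, for which r was 0.97 in S100a8, 0.96 in Camp and Lcn2 and -0.03 in Mmp8. The others were 4930438A08Rik (0.94), Sept5 (0.94), Chi3l1 (0.91), Chi3l4 (0.91), Cd300lf (0.89), 1100001G20Rik (0.88), AV024403 (0.85), 4930418G15Rik (0.84) and Tnfsf13b (0.83). Itgb2l fell from 10.09 in LT-HSC to 6.99 in CMP by population mean and was well above background on all 17 arrays, whereas AV024403 was so on 6. Chi3l4 may share signal with Chi3l3 as noted above.

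Markers of mature cells were read on the same arrays. Of 15 other mature neutrophil genes 14 were read, and Ly6g, which encodes an antigen that the GR-1 antibody binds, was not analysed here. Their mean level was 6.71 to 7.27 in LT-HSC, 7.23 to 8.07 in ST-HSC, 6.12 to 7.10 in MPP, 5.93 to 6.17 in CMP, 6.50 to 7.33 in GMP and 5.46 to 6.24 in MEP, with 9 to 10 of the 14 well above background in LT-HSC and 12 to 13 in ST-HSC. In the HSC subsets 7 of the 14 were called higher and 1 lower (18.2% and 23.1% of all probes). The largest differences among the higher were those of Padi4 (2.34 ± 0.18), Retnlg (1.88 ± 0.46), Il1b (1.80 ± 0.42) and Fpr1 (1.40 ± 0.47). Fpr1 was not well above background on any myeloid array. The lower gene was Cxcr2 (-0.96 ± 0.31). In LT-HSC against ST-HSC and MPP none was called (6.92% of all probes). In GMP 3 were called higher (11.2% of all probes), Trem1 (2.49 ± 0.68), Ltb4r1 (2.32 ± 0.44) and Cxcr2 (1.72 ± 0.40). Mmp25 was not well above background on any array, and Stfa2l1 was on 2 HSC subset arrays only. The mean of this list correlated with the late gene profile at 0.70 over the 17 arrays and at 0.91 after subtraction of population means. In bulk RNA a few cells with much of a transcript and many cells with little of it cannot be told apart, and the part of mature neutrophil RNA in the high levels of LT-HSC and ST-HSC was not tested.

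Markers of other cell types also differed between the populations. B cell markers were highest in LT-HSC, with list means of 8.76 to 9.27 against 6.86 to 7.32 in ST-HSC and MPP, and 5 of 8 were called higher there than in ST-HSC and MPP, where 6.92% of all probes were called in either direction, led by Ms4a1, the CD20 antigen (5.34 ± 0.86; adjusted p = 0.00268 by limma), Vpreb3 (3.08 ± 0.49), Ighm (1.92 ± 0.30) and Vpreb1 (1.70 ± 0.43). Of 5 T cell markers 1 was called higher in LT-HSC, Cd3g (2.49 ± 0.67), and of 6 erythroid markers 2 were, among them Ahsp (3.63 ± 0.84). Of 8 monocyte and macrophage markers 4 were called lower in LT-HSC, C1qc (-2.82 ± 0.58), Cx3cr1 (-2.60 ± 0.72), C1qa (-2.57 ± 0.43) and F13a1 (-2.28 ± 0.30). In GMP against the others, where 11.2% of all probes were called higher and 8.51% lower, 4 of the 8 monocyte and macrophage markers were called higher and 1 lower, with the largest differences for F13a1 (4.09 ± 0.24), Cx3cr1 (2.81 ± 0.57), Ccr2 (1.89 ± 0.26) and Adgre1 (1.89 ± 0.31). There 1 of the 8 B cell markers was called higher (Cd79b, 0.77 ± 0.19) and 2 lower (among them Vpreb3, -2.05 ± 0.38). All 6 erythroid markers were called lower in GMP (Ahsp by a difference of -4.11 ± 0.66 and Hbb-b1 of -3.90 ± 0.43), as were 4 of the 5 T cell markers (Lck, -3.08 ± 0.19). The list means correlated with the late gene profile over the 17 arrays at 0.48 for B cell, 0.38 for T cell and 0.42 for erythroid markers, -0.02 for monocyte and macrophage markers, 0.12 for primary granule genes, -0.15 for granulocyte regulators and 0.07 for sort markers. Once population means were subtracted, the values were -0.18 for B cell, -0.23 for T cell and 0.34 for erythroid markers, 0.18 for monocyte and macrophage markers, 0.66 for primary granule genes, 0.44 for granulocyte regulators and 0.54 for sort markers. The share of spots well above background correlated with the late gene profile at -0.34 and, after the same subtraction, at -0.66, and its part in the levels was not tested.

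**Figure D4:**
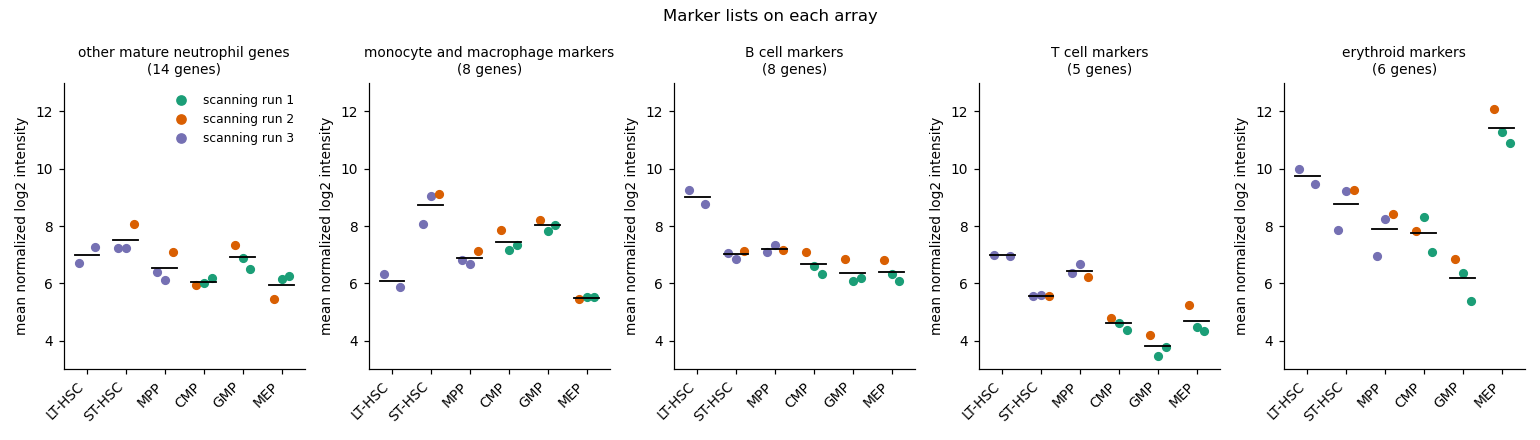
Mean normalized log2 intensity (y axis) of 5 marker lists on each array, by population (x axis), with population means as lines and colours for scanning runs. B cell markers are highest in LT-HSC (8.76 to 9.27), erythroid markers in MEP (10.9 to 12.1) and monocyte and macrophage markers in ST-HSC (8.08 to 9.13).

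The promoters of members that moved together, and of Mmp8, are shown from RefSeq (GRCm38.p6), each from 250 bases before to 50 bases after the annotated start. Of the 9 genes 8 matched the promoter table, Chi3l3 under the name Chil3, and Mmp9 did not. Capitals mark matches, on either strand, to a C/EBP motif (TTGCNNAA), an Ets motif (GAGGAAGT) or the letters TATAAA of a TATA box. None of these motifs overlapped another in the sequences printed.
S100a8 promoter, GRCm38.p6 chr3:90668821-90669120 (+): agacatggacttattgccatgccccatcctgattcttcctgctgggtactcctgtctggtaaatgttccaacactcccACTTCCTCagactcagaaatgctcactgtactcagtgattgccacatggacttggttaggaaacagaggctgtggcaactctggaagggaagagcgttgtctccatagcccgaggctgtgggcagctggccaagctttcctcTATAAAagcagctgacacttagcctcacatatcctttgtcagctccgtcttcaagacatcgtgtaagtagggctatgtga
Ngp promoter, GRCm38.p6 chr9:110419558-110419857 (+): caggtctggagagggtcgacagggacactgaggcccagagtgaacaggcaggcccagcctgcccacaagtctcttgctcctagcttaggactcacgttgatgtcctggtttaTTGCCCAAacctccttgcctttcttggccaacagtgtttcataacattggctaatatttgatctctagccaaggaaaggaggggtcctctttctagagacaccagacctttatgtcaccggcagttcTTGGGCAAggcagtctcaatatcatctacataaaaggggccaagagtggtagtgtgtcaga
Ltf promoter, GRCm38.p6 chr9:111019042-111019341 (+): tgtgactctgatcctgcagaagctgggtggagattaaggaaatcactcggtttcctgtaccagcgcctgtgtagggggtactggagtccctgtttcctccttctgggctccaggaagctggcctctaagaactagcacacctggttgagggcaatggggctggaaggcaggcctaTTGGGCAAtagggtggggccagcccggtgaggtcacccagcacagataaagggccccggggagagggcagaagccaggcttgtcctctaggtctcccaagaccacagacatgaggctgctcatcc
Mmp8 promoter, GRCm38.p6 chr9:7558179-7558478 (+): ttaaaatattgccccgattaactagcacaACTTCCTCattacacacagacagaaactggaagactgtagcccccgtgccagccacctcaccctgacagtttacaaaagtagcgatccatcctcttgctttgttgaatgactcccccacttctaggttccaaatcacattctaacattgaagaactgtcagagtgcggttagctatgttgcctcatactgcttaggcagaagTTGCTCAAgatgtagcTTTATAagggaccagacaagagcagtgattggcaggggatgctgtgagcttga
The C/EBP motif was found in 5 of the 8 promoters (S100a9, Ltf, Ngp, Lcn2 and Mmp8), with 10.8% of 32851 promoters of the same length holding it. The letters TATAAA were found in 4 of 8 (S100a8, S100a9, Mmp8 and Chi3l3), against 13.6% of all promoters, and the Ets motif in 2 of 8 (S100a8 and Mmp8), against 3.2%. The TATAAA match lay at -30 from the annotated start in S100a8, at 0 in S100a9 and at -3 in Mmp8 and Chi3l3. In Mmp8 it was on the reverse strand. Camp held none of the 3. Mmp8, whose levels went another way, held letter matches to all of them, and the brighter genes differed among themselves in which matches they held. A match of letters is a description of these windows.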

How the data were processed

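RNA from 17 sorted pools was hybridized to single-colour Agilent whole mouse genome 4x44k arrays. The authors deposited scanner files, from which the processed intensity of Feature Extraction was used (9.5.3.1 for run 1 and 10.2.1.3 for the others), and a table of log2 values that the authors had quantile-normalized with limma, per the labels and methods. Here log2 intensities of all 45018 spots were quantile-normalized. Control spots (1639) and outlier-flagged spots were left out, and spots of a probe were averaged (161 probe values missing). Gene names came from the array files. Over 41174 probes a linear model held 1 mean for each population, fitted with limma 3.58.1 (R 4.3.3, lmFit and eBayes), with Benjamini-Hochberg adjustment over all probes at 0.05. Tests are two-sided. A probe counted as well above background where at least 50% of its spots did. The fit was tested on simulated data. The number of arrays limits the precision, and p-values measure the spread between these pools together with that between scanning runs. All populations but LT-HSC had arrays from more than 1 run, and LT-HSC shares the spread estimate of the others. Members and lists were chosen with earlier results of these data known. All member probes are named, with up to 4 called genes from each other list and the 10 genes of most similar profile, and the probe with the highest mean stood for a gene. Alternatives covered scaling, background correction, the log2 table, dim probes, scanning run, slide, replicate number, LT-HSC arrays, numbered arrays and each array. Deviations of same-numbered arrays correlated at -0.09 to 0.27 over all pairs and at 0.06 to 0.27 within 1 sort. Not every pair was over 0.1, so the numbers were not taken as pairing. Values of 2 marker genes are not reported here.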

Additional observations from a re-analysis of the deposited data

Results flagged for a closer look

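Among the 9 myeloid arrays the CMP array of run 2 had a normalized log2 intensity of 11.31 for Chi3l3 (A_51_P167292), apart from the next lowest array at 12.88 (a gap of 0.50 of the whole range). It was the only value set apart in this way among 22 sets of member values, each tested over the 8 HSC subset arrays or the 9 myeloid arrays. By chance about 1 set in 20 is expected to show such a value.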

How the results depend on the processing

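The number of arrays and a spread of about 1 log2 unit within populations limit these results, and the LT-HSC values rest on 2 arrays. The replicate block was fitted over the 10 numbered arrays, which leaves out LT-HSC and run 2, and the same arrays without the block were an alternative chosen after seeing the data. Over these arrays the HSC subsets were all in run 3 and the myeloid populations all in run 1. That comparison cannot be told apart from scanning run there. The percent in parentheses after a count of calls is the share of all probes called in the same fit. In GMP against CMP the 0 calls became 3 over the 10 numbered arrays (6.93%), and no other alternative called a member probe there. By the F-test 6 probes were called (40.6%), 10 over the numbered arrays both with the replicate block (46.3%) and without it (54.7%), 2 without both LT-HSC arrays (37.9%) and 2 to 7 with 1 array left out. In GMP against the other populations the 0 calls became 6 with scanning run as a block (15.6%), 1 with slide as a random block (19.8%), 6 with the replicate block (27.4%), 8 over the numbered arrays without it (27.9%) and 0 to 1 with 1 array left out. In the HSC subsets against the myeloid populations the 6 calls became 3 with the replicate block (45.7%), 7 over the numbered arrays without it (55.8%), 3 of them higher and 4 lower, 1 without both LT-HSC arrays (41.3%) and 4 to 6 with 1 array left out, where Ltf probe A_52_P15388 turned to -0.33 with the replicate block and -0.17 over the numbered arrays without it, Ngp to -0.66 and Lcn2 to -0.45 over the numbered arrays without it, and Mmp9 probe A_52_P507214 to 0.14 with 75th percentile scaling and 0.61 with run as a block. In LT-HSC against ST-HSC and MPP the 0 calls became 2 with 75th percentile scaling (15.6%), 1 with normexp background correction (5.28%), 1 with the authors' table (5.56%), 5 with run as a block (13.9%) and 0 to 2 with 1 array left out, with 2 without the LT-HSC array labelled 2-3 (14.4%). The causes were not tested. The 75th percentile scaling moved the median of all probes to 0.31 for the HSC subsets, 0.21 for LT-HSC, -0.29 for GMP against the others and 0.14 for GMP against CMP, and the share of calls that were higher from 44.0% to 64.1%, 66.9% to 89.9%, 56.7% to 43.3% and 38.6% to 34.8%.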
